A study of Mus musculus with 93 samples.

Results

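The livers of PWK/PhJ and CAST/EiJ mice held 82 genes whose level moved in opposite directions between a control diet (CD) and a Western diet (WD). The genes were chosen by their measured values. Counts were scaled to log2 CPM (gene counts scaled by library size, with TMM scaling factors and a prior count of 2), the mean of the CD mice was subtracted from the mean of the WD mice within each strain, and a gene was kept when its mean over all 93 mice was at least 1 and its difference was at least 0.5 in one strain and at most -0.5 in the other. Of 53465 genes in the table, 11149 had a mean of at least 1, and 82 of these (0.735%) passed both differences. In 47 genes WD was above CD in PWK/PhJ and below it in CAST/EiJ, and 35 genes went the other way. A further 138 genes were at least 0.5 higher on WD in both strains, and 137 were at least 0.5 lower in both.

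The study fed male mice of 7 inbred strains, the wild-derived PWK/PhJ, CAST/EiJ and WSB/EiJ and the classical A/J, 129S1/SvImJ, C57BL/6J and DBA/2J, either CD (10% of energy from fat) or WD (40% of energy from fat). All mice lived at 30 °C, which is thermoneutral for mice, from 6 weeks of age, received their diet from 7 weeks for 17 weeks, and were killed at 24 weeks after a fast, so CD mice shared the temperature and the fast with WD mice. Liver RNA was sequenced in 14 groups of 5 to 8 mice, with PWK/PhJ on CD (n = 6) and WD (n = 7) and CAST/EiJ on CD (n = 7) and WD (n = 8). Reads on genes ranged from 40020424 to 49894856 per mouse, mice were housed in shared cages, and p-values measure only the spread between these mice.

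A Western diet loads the liver with fat and cholesterol. Hepatocytes store the fat in lipid droplets, burn part of it in mitochondria and peroxisomes, and export part of it on lipoproteins, while stressed cells switch on early transcription factors and secreted signals, and resident and incoming immune cells release cytokines. PWK/PhJ belongs to the subspecies Mus musculus musculus and CAST/EiJ to Mus musculus castaneus, and the genomes of both differ from the C57BL/6J genome to which all reads were mapped. The share of unmapped reads averaged 3.50% in PWK/PhJ on CD, 7.88% in PWK/PhJ on WD, 10.8% in CAST/EiJ on CD and 13.3% in CAST/EiJ on WD, so it also moved with diet. Its part in the differences was not tested, and levels between strains carry these mapping differences.

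Before any gene, the CAST/EiJ CD group has to be described, because its 7 mice did not form one cluster. In the 11067 genes that had a mean of at least 1 and were not among the 82, the first principal component of these 7 mice held 59.8% of their variance. Mice 3, 5, 6 and 7 had values of 6.3, 31.6, 20.8 and 26.5 on it, and mice 1, 2 and 4 had -24.5, -28.7 and -32. Of the 47 genes lower on WD in CAST/EiJ, mice 3, 5, 6 and 7 were above every WD mouse in 35, 39, 42 and 40 genes, and mice 1, 2 and 4 in 15, 14 and 17. Of the 35 genes higher on WD, mice 3, 5, 6 and 7 were below every WD mouse in 27, 32, 30 and 29, and mice 1, 2 and 4 in 9, 12 and 17. The 82 genes were chosen by the mean of these same 7 mice, so these counts follow in part from the choice. Only the principal component used genes outside the 82. The mice belonged to cohorts 1 (mouse 1), 3 (mice 2 and 3) and 4 (mice 4 to 7), so both kinds of mouse occurred within cohorts 3 and 4. RNA integrity numbers (RIN) lay between 8.7 and 9.2 in all 7, reads on genes between 41305798 and 44583685, and unmapped reads between 8.93% and 13.9%. Why mice 3, 5, 6 and 7 stood apart was not tested.

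The size of the CAST/EiJ difference rested on these 4 mice in most of the 82 genes, and its direction in fewer. When they were left out, 58 of the 82 no longer met the rule. Of the sets, 15 of the 47 genes and 9 of the 35 still met the rule, 14 and 22 kept their direction but fell short of 0.5, and 18 and 4 changed direction. The median CAST/EiJ difference moved from -0.86 to -0.16 over the 47 genes and from 0.80 to 0.36 over the 35. The mice were picked after their values had been seen, so part of this shift follows from the picking. With the 3 remaining CD mice the rule found 30 and 20 genes, of which 15 and 11 were not among the 82. For the genes whose levels are described below, the CAST/EiJ difference is therefore given with all 7 mice and without mice 3, 5, 6 and 7.

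**Figure D1:**
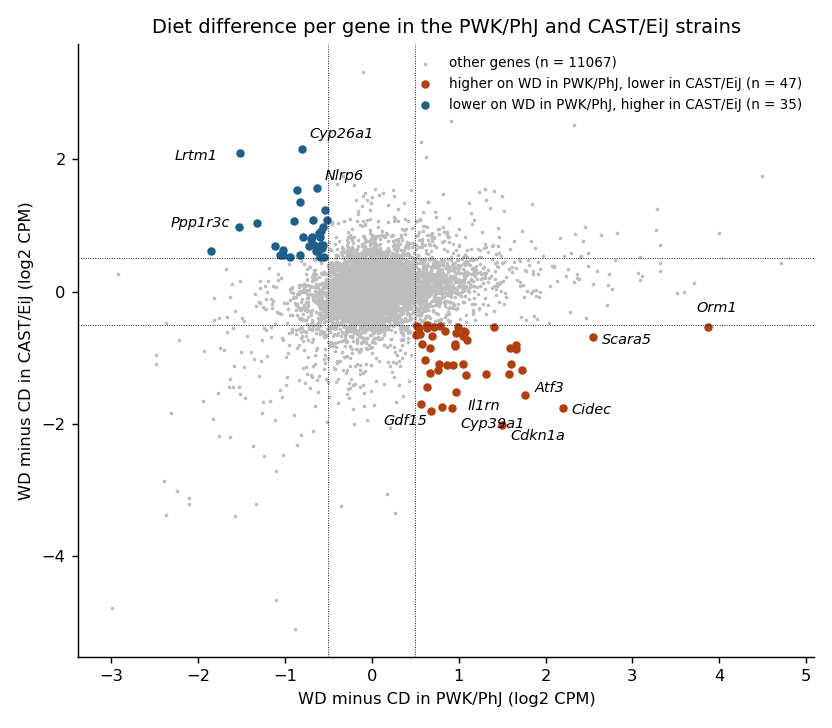
WD minus CD difference (log2 CPM) in PWK/PhJ on the horizontal axis and in CAST/EiJ on the vertical axis for each of the 11149 genes with a mean of at least 1; dotted lines mark differences of 0.5 and -0.5. The 47 genes in red lie at lower right and the 35 in blue at upper left, with Cidec at 2.20 and -1.77 and Orm1 farthest right at 3.87.

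In the 47 genes, the difference in PWK/PhJ ranged from 0.51 to 3.87 with a median of 0.95, and in CAST/EiJ from -2.02 to -0.51. In the 35 genes it ranged from -1.85 to -0.52 in PWK/PhJ, with a median of -0.69, and from 0.52 to 2.16 in CAST/EiJ. The genes nearest inside the threshold were Mbnl2 (0.63 and -0.51) and Hspa2 (0.51 and -0.66), and the nearest outside were Casc4 (0.97 and -0.498) and Shank2 (-0.494 and 0.75). The median level of PWK/PhJ minus that of CAST/EiJ over the 47 genes was -1.28 on CD and 0.66 on WD, and over the 35 genes 1.02 on CD and -0.23 on WD (log2 CPM). PWK/PhJ had the higher mean in 9 of the 47 genes on CD and in 33 on WD, and in 27 of the 35 on CD and 15 on WD. The rule fixes the direction in which this gap between the strains moves with diet, so nothing is read from the shift. Protein-coding genes made up 46 of the 47 and 26 of the 35, against 96.3% of the 11149, and the other 9 of the 35 were pseudogenes and noncoding transcripts such as Gm4956 and Serpina4-ps1.

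In PWK/PhJ, every WD mouse was above every CD mouse in 21 of the 47 genes, beside 6.18% of the 11149, and below every CD mouse in 13 of the 35, beside 8.73%. In CAST/EiJ, every WD mouse was below every CD mouse in 3 of the 47 (background 2.00%) and above in 1 of the 35 (background 1.11%). Il1rn and Notum were among them. Since the rule used these contrasts, nothing is read from the counts. Notum was free of overlap in both strains.

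Fat storage and fat burning were represented by Cidec, Apoa4, Ehhadh and Vnn1. Cidec (ENSMUSG00000030278, chromosome 6, 113424634 to 113435760 on the minus strand of GRCm38) encodes a lipid droplet protein that fuses small droplets into large ones. Its level was 2.19 to 5.39 CPM (median 4.08) in PWK/PhJ on CD and 7.57 to 48.4 (median 15.9) on WD, so the diets did not overlap. In CAST/EiJ on CD, Cidec was 19.2, 6.28 and 6.33 CPM in mice 1, 2 and 4 and 54.4, 121, 133 and 108 CPM in mice 3, 5, 6 and 7, and on WD it was 8.02 to 19.3 (median 9.53). All 4 of the latter CD mice were above every WD mouse, and 2 of the other 3 were below every WD mouse. The CAST/EiJ difference was -1.77 with all mice and 0.19 without the 4.

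Apoa4, an apolipoprotein that rises with liver fat and is exported with lipoproteins, was 197 to 674 CPM (median 481) on CD and 392 to 1688 (median 857) on WD in PWK/PhJ. In CAST/EiJ it was 59.1 to 622 (median 292) on CD and 124 to 195 (median 161) on WD. The WD mice of CAST/EiJ lay inside the range of the CD mice, and the difference of -0.60 became 0.70 without the 4 mice. Ehhadh, the peroxisomal bifunctional enzyme of fatty acid oxidation and a target of the receptor PPARα, was 442 to 557 CPM (median 485) on CD and 571 to 852 (median 736) on WD in PWK/PhJ. In CAST/EiJ it was 479, 304 and 296 CPM in CD mice 1, 2 and 4, 1602, 1532, 2701 and 2664 in mice 3, 5, 6 and 7, and 565 to 987 on WD. Here the CD mice lay on both sides of the WD mice with a gap where all 8 WD mice fell, and the difference went from -0.51 to 0.94. Vnn1, a pantetheinase and another PPARα target, was 4.88 to 23.2 CPM (median 15.4) on CD and 18.7 to 58.0 (median 39.3) on WD in PWK/PhJ, against 1.70 to 8.72 (median 3.22) and 1.20 to 2.31 (median 1.77) in CAST/EiJ, where the difference kept its direction without the 4 mice (-1.10 and -0.47).

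Of the lists examined, that of early stress genes held the most of the 82. Of a list of 26 immediate early genes, which cells transcribe within minutes of a stimulus, 21 had a mean of at least 1, and 6 of them (28.6%) were among the 47, Jun, Atf3, Klf6, Btg2, Nr4a1 and Cdkn1a, beside 0.735% of all such genes. Jun, Klf6 and Nr4a1, which the rule for naming did not select, are named after their values were seen. Without CAST/EiJ CD mice 3, 5, 6 and 7, none of the 6 still met the rule. The CAST/EiJ difference went from -0.73 to 0.64 for Jun, from -0.54 to -0.21 for Klf6 and from -1.70 to -0.45 for Nr4a1. Atf3, a stress-induced transcription factor, was 0.991 to 1.63 CPM (median 1.20) on CD and 1.91 to 5.77 (median 4.79) on WD in PWK/PhJ. In CAST/EiJ, Atf3 was 1.01, 1.09 and 0.291 CPM in CD mice 1, 2 and 4, 5.37, 6.60, 10.6 and 10.4 in mice 3, 5, 6 and 7, and 0.588 to 1.49 (median 0.842) on WD. The 4 CD mice were thus above every CAST/EiJ WD mouse and the other 3 were within their range or below it.

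Cdkn1a encodes p21, an inhibitor of the cell cycle that p53 switches on. It was 1.20 to 7.37 CPM (median 3.71) on CD and 4.75 to 23.8 (median 6.98) on WD in PWK/PhJ. In CAST/EiJ it was 43.6, 59.0 and 53.0 CPM in CD mice 5, 6 and 7, 1.10 to 2.84 in the other 4, and 1.00 to 5.44 (median 1.46) on WD. Only mice 5, 6 and 7 were above the WD mice. Btg2, which slows proliferation, was 4.31 to 9.47 (median 5.91) and 10.4 to 15.8 (median 12.9) in PWK/PhJ and 4.62 to 41.9 (median 30.6) and 4.92 to 13.8 (median 7.5) in CAST/EiJ. The CAST/EiJ difference of Atf3 was -1.57 with all mice and 0.39 without the 4. That of Cdkn1a was -2.02 and 0.39, and that of Btg2 -1.26 and 0.0054. Exons of a gene on the opposite strand overlap Cdkn1a, and since the sources used here do not say whether counting used strand, its reads cannot be told from those of that gene. The same limit holds for Jun, Apoa4, Itga4, Il1b, Slc16a5, Ccn2, Mbnl2, Tmie, Notum and Shroom1. Over the whole list, 10 of 21 genes were at least 0.5 higher and 3 at least 0.5 lower on WD in PWK/PhJ, against 1 and 11 in CAST/EiJ. These counts include the 6 genes that the rule chose by the same differences. Without the 4 mice the CAST/EiJ numbers were 3 and 3.

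Gdf15 and Mt1 had some of the widest swings when the 4 mice were left out. Gdf15, a hormone of cellular stress that lowers appetite, was 4.82 to 13.1 CPM (median 8.19) on CD and 8.83 to 22.7 (median 13.8) on WD in PWK/PhJ. In CAST/EiJ, Gdf15 was 0.368, 1.92 and 1.24 CPM in CD mice 1, 2 and 4, 17.7, 40.5, 34.9 and 30.1 in mice 3, 5, 6 and 7, and 0.752 to 4.02 (median 2.18) on WD. The CAST/EiJ difference was -1.74 with all mice and 1.04 without the 4. Mt1, a metal-binding protein induced by zinc and glucocorticoids, went from -0.81 to 1.03. It was 8.70 to 28.5 CPM (median 14.5) and 29.3 to 86.2 (median 43.3) in PWK/PhJ, without overlap, and 21.2 to 700 (median 187) and 40.3 to 190 (median 74.1) in CAST/EiJ.

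Il1rn behaved differently. It encodes the interleukin 1 receptor antagonist, which blocks signalling by interleukin 1. Its level was 5.78 to 16.7 CPM (median 12.3) on CD and 15.4 to 26.3 (median 20.9) on WD in PWK/PhJ, and 4.73 to 20.2 (median 7.38) on CD and 1.72 to 4.04 (median 2.96) on WD in CAST/EiJ. All 7 CD mice of CAST/EiJ were above all 8 WD mice, and the difference was -1.52 with all mice and -1.12 without the 4. The cytokines Il1b, Il33 and Cxcl13, named after their values were seen, also still met the rule without the 4 mice, with CAST/EiJ differences that went from -0.55 to -0.60, from -0.68 to -0.89 and from -0.79 to -1.34. Orm1, an acute phase protein, had the largest PWK/PhJ difference of the set, with 7.32 to 11.6 CPM (median 9.18) on CD and 63.9 to 263 (median 144) on WD, against 106 to 574 (median 160) and 81.0 to 210 (median 137) in CAST/EiJ, where the difference was -0.53 with all mice and -1.11 without the 4. Its reads may be shared with the near-identical genes Orm2 and Orm3, so it is uncertain which of these genes the values belong to.

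Cyp39a1, the 24-hydroxycholesterol 7α-hydroxylase of bile acid synthesis, was 0.379 to 2.05 CPM (median 0.661) and 0.280 to 3.47 (median 1.91) in PWK/PhJ, and 44.2 to 118 (median 66.9) and 14.1 to 44.8 (median 19.8) in CAST/EiJ. The PWK/PhJ diets overlapped at a low level, and in CAST/EiJ 6 of 7 CD mice were above every WD mouse. The difference was -1.76 with all mice and -1.27 without the 4.

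Htra1, a secreted serine protease, had 0.699 to 1.00 CPM (median 0.859) on CD and 1.40 to 4.19 (median 2.99) on WD in PWK/PhJ. In CAST/EiJ it was 9.05 to 15.6 in 6 CD mice and 58.6 in mouse 5, and 4.11 to 10.3 (median 5.36) on WD, with a difference of -1.25 that became -0.89 without the 4 mice. Synpo, an actin-associated protein, was 2.5 to 3.52 (median 2.80) and 4.35 to 16.1 (median 10.3) in PWK/PhJ. In CAST/EiJ, Synpo was 3.80 to 71.3 (median 24.0) on CD and 4.83 to 11.1 (median 8.72) on WD, and its difference went from -1.19 to 0.39. Ccn2, a growth factor of fibrosis, was 4.87 to 14.4 (median 7.41) and 7.21 to 16.3 (median 13.5) in PWK/PhJ and 4.33 to 27.8 (median 9.80) and 4.20 to 18.9 (median 6.00) in CAST/EiJ, with overlap in both strains. Its CAST/EiJ difference of -0.86 became 0.023 without the 4 mice. Ccn2 was the only 1 of 42 extracellular matrix genes among the 82, although 36 of the 42 were at least 0.5 higher on WD in PWK/PhJ, since 4 were at least 0.5 higher and 1 was at least 0.5 lower in CAST/EiJ.

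**Figure D2:**
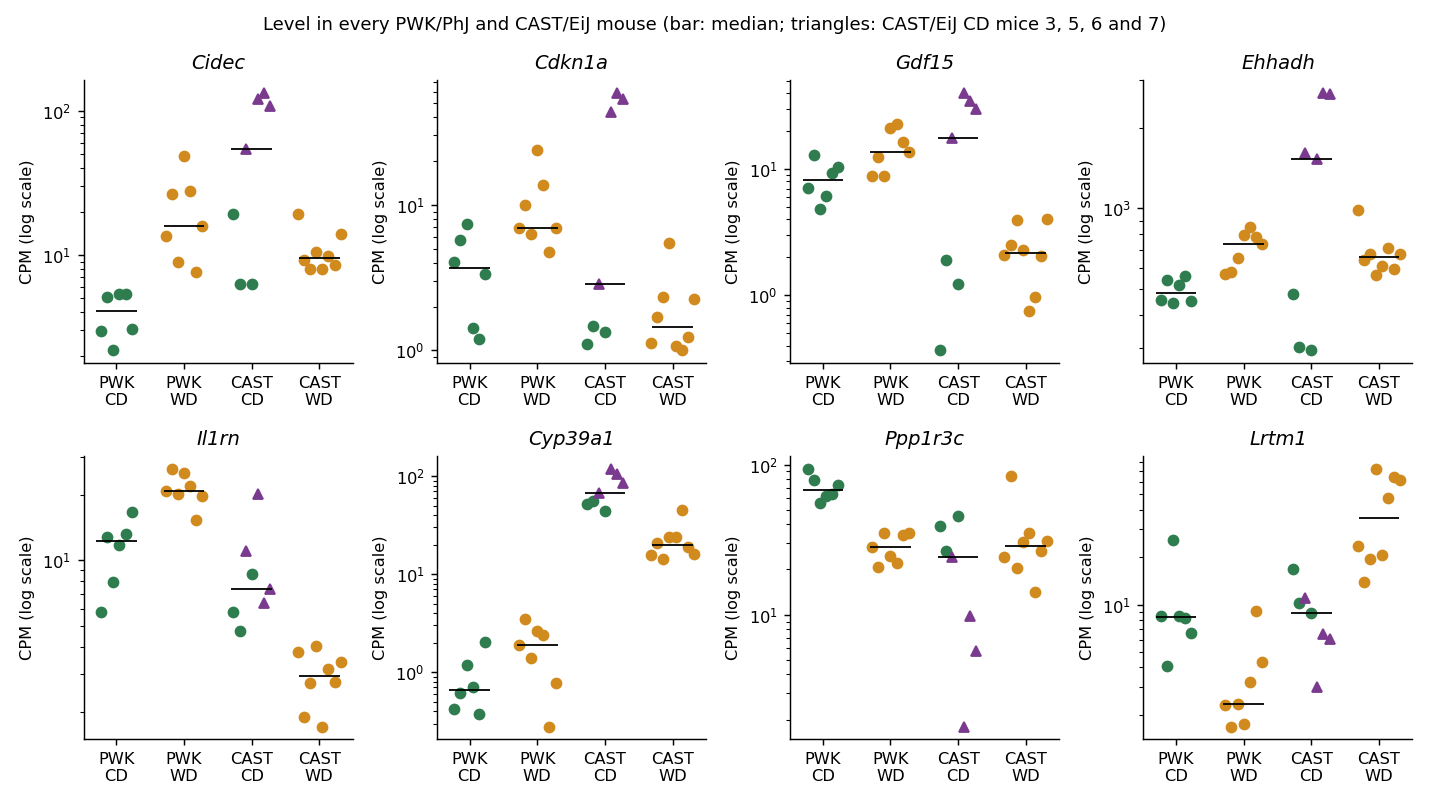
Level of 8 genes in every PWK/PhJ and CAST/EiJ mouse (CPM, log axis), by strain and diet; green circles are CD mice, orange circles WD mice, purple triangles CAST/EiJ CD mice 3, 5, 6 and 7, and bars the group medians. For Cidec, Gdf15 and Ehhadh the 4 triangles lie above all CAST/EiJ WD mice and at least 1 of the other CD mice below them, whereas for Il1rn all 7 CD mice lie above the WD mice.

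**Figure D3:**
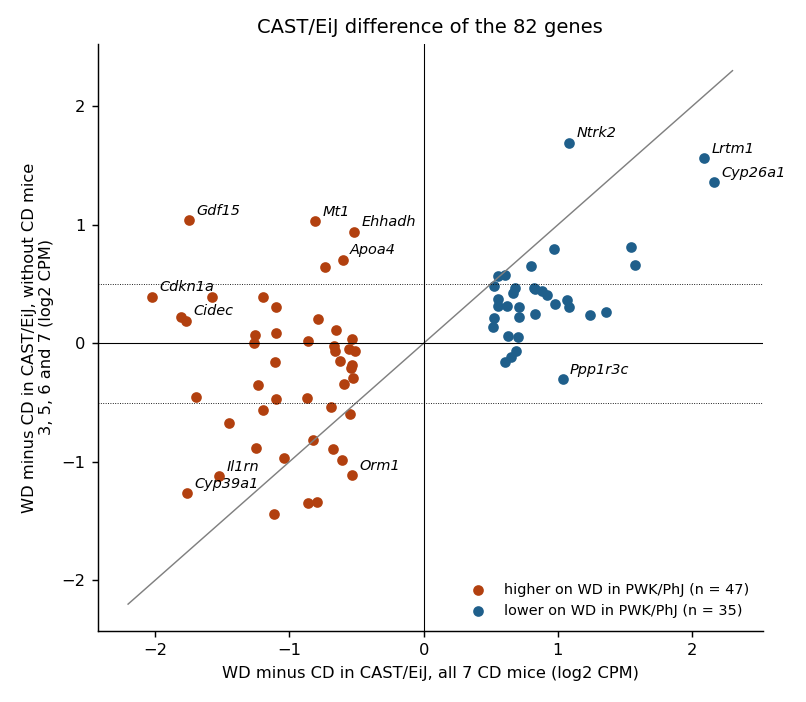
WD minus CD in CAST/EiJ (log2 CPM) for the 82 genes, with all 7 CD mice on the horizontal axis and without CD mice 3, 5, 6 and 7 on the vertical axis; the grey line marks equal values and dotted lines 0.5 and -0.5. Red points above 0 are the 18 genes whose direction changed, among them Gdf15 at 1.04, Mt1 at 1.03 and Ehhadh at 0.94, and blue points below 0 are the 4 that changed the other way.

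Among the 35 genes lower on WD in PWK/PhJ, Ppp1r3c was the only 1 of 25 listed genes of gluconeogenesis and insulin response. Ppp1r3c brings protein phosphatase 1 to glycogen and promotes glycogen synthesis. It was 55.6 to 93.4 CPM (median 68.1) on CD and 20.8 to 35.2 (median 28.2) on WD in PWK/PhJ, without overlap. In CAST/EiJ, Ppp1r3c was 38.8, 26.5 and 45.3 CPM in CD mice 1, 2 and 4, 24.4, 1.80, 9.72 and 5.70 in mice 3, 5, 6 and 7, and 14.2 to 83.4 (median 28.7) on WD. Mice 5, 6 and 7 were below every WD mouse, and the difference of 1.04 became -0.30 without the 4. Angptl8, a hormone-like inhibitor of lipoprotein lipase that rises with feeding and insulin, was 57.3 to 149 (median 108) on CD and 57.1 to 76.3 (median 66.1) on WD in PWK/PhJ. In CAST/EiJ, Angptl8 was 3.68 to 32.9 in 6 CD mice and 110 in mouse 2, against 12.6 to 73.7 (median 42.9) on WD, with a difference of 1.24 that became 0.24.

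Inhba, Notum, Leap2 and Reck were separated by diet in PWK/PhJ. Inhba, the βA subunit of activin A, was 31.0 to 65.8 CPM (median 51.8) on CD and 15.4 to 29.8 (median 23.7) on WD in PWK/PhJ, without overlap, and 4.80 to 38.6 (median 13.7) and 16.5 to 32.2 (median 27.0) in CAST/EiJ. The CAST/EiJ difference of 0.69 became -0.061 without the 4 mice. Notum, an enzyme that inactivates Wnt proteins, was 18.9 to 26.4 (median 21.2) and 10.9 to 16.5 (median 13) in PWK/PhJ and 12.1 to 28.8 (median 21.8) and 28.8 to 39.9 (median 33.9) in CAST/EiJ. Notum was separated by diet in both strains, in CAST/EiJ by a margin that vanishes on rounding, and its CAST/EiJ difference was 0.71 with all mice and 0.31 without the 4. Leap2, a liver peptide that opposes ghrelin at its receptor, was 63.6 to 99.3 (median 80.4) and 40.0 to 61.0 (median 49.9) in PWK/PhJ and 11 to 33 (median 22.9) and 17.0 to 58.8 (median 39.0) in CAST/EiJ, with a difference of 0.68 that became 0.46. Reck, a membrane-bound inhibitor of matrix metalloproteinases, was 8.99 to 16.2 (median 11.3) and 4.35 to 7.64 (median 6.26) in PWK/PhJ, and 4.58 to 8.84 (median 5.85) and 7.00 to 14.6 (median 9.14) in CAST/EiJ. Its differences were -1.03 and 0.62, the latter 0.31 without the 4 mice.

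Enzymes of small molecules included Cyp26a1, Cyp2c67 and Hsd3b5. Cyp26a1, which breaks down retinoic acid, was 1.69 to 6.92 CPM (median 3.91) and 1.18 to 11.6 (median 1.62) in PWK/PhJ, with overlap, and 0.0518 to 0.582 (median 0.179) and 0.335 to 2.07 (median 1.14) in CAST/EiJ. Its CAST/EiJ difference was 2.16, the largest of the 35, and 1.36 without the 4 mice. Hsd3b5, a steroid dehydrogenase found in male mouse liver, was 68.9 to 138 (median 105) and 23.0 to 126 (median 80.4) in PWK/PhJ, and 30.8 to 191 (median 52.4) and 108 to 294 (median 165) in CAST/EiJ. The diets overlapped in both strains, and the CAST/EiJ difference of 1.36 became 0.26 without the 4 mice. Cyp2c67 was separated in PWK/PhJ, at 71.9 to 125 (median 95.8) and 34.0 to 62.7 (median 44.4), but not in CAST/EiJ, at 34.6 to 114 (median 83.9) and 56.8 to 275 (median 99.9), with a difference of 0.55 that became 0.32. It belongs to a large family of similar genes, so some of its reads may come from other members.

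Membrane proteins among the 35 included Lrtm1, Tmie, Celsr1 and Aqp8. Lrtm1, a protein with leucine-rich repeats, was 4.07 to 25.5 CPM (median 8.39) and 1.69 to 9.08 (median 2.35) in PWK/PhJ, and 3.00 to 16.9 (median 8.78) and 13.9 to 72.3 (median 35.4) in CAST/EiJ. In CAST/EiJ 6 of 7 CD mice were below every WD mouse, and the difference was 2.09 with all mice and 1.56 without the 4. Tmie was 31.7 to 42.8 (median 41.1) and 17.0 to 28.6 (median 21.1) in PWK/PhJ, without overlap, and 1.31 to 12.6 (median 6.81) and 9.61 to 26.6 (median 19.2) in CAST/EiJ, with a difference of 1.54 that became 0.82. Celsr1, a cadherin of planar cell polarity, was 59.0 to 108 (median 83.8) and 39.9 to 71.0 (median 46.4) in PWK/PhJ and 0.129 to 0.663 (median 0.405) and 0.485 to 1.13 (median 0.715) in CAST/EiJ, with overlap in both strains and a CAST/EiJ difference of 0.83 that became 0.46. Aqp8, a water and peroxide channel, was 149 to 308 (median 185) and 94.9 to 151 (median 119) in PWK/PhJ and 4.25 to 14.0 (median 10.5) and 6.77 to 32.7 (median 14.2) in CAST/EiJ, where the difference went from 0.83 to 0.25.

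Promoters from RefSeq (GRCm38.p6), 300 bases around and mostly before the start of transcription, were matched for 33 of the 47 genes (42 promoters), 25 of the 35 (28 promoters) and 8833 of the 11149 (11364 promoters). The letters of 13 motifs were searched on both strands. Those of 3, AP-1, the cAMP response element and the ATF4 and C/EBP composite, are shown in members described above because Jun and Atf3, whose products bind such sites, are themselves among the 47. The AP-1 letters TGANTCA, with N for any base, were in 9.52% of the 42 promoters, 10.7% of the 28 and 5.21% of the 11364. The cAMP response element letters TGACGTCA were in 2.38%, 3.57% and 3.02%, and the ATF4 and C/EBP composite letters TGATGCAA in 2.38%, 3.57% and 0.59%. These shares stand for 1 to 4 promoters each. The AP-1 letters were also in Cgref1 (2 overlapping promoters that hold the same site, counted for each), Dll1 and Nlrp6, and those of the cAMP response element in Gm32511, which are not shown. Of the other 10 motifs, the letters of the unfolded protein response element (TGACGTGG), the NF-kB site (GGAATTTCC) and the NRF1 site (GCGCATGCG) were in none of the 42 or 28 promoters, beside 1%, 0.361% and 3.59% of the 11364. The D-box TTATGTAA was in 2.38%, 7.14% and 0.563%, the E-box CACGTG in 11.9%, 14.3% and 10.1%, and the sterol regulatory element TCACNCCAC in 2.38%, 3.57% and 1.23%. The GC box GGGCGG was in 52.4%, 32.1% and 61.7%, and the CCAAT box in 33.3%, 46.4% and 37.3%. The HNF4A letters CAAAGTCCA and the ETS letters CCGGAAGT were each in 1 promoter of the 28 and in none of the 42, beside 0.528% and 8.24%. Each line gives 30 bases with the motif in capitals, on the strand of the gene:
Cidec, AP-1, chr6:113434842-113434871, minus strand: accaggaggtgTGACTCAcctcctgccagc
Il1rn, AP-1, chr2:24336708-24336737, plus strand: ttctgctagacTGAGTCAcgcctctggaag
Lrtm1, AP-1, chr14:29018078-29018107, plus strand: ccagtgagggtTGACTCAgcacggttgata
Atf3, ATF4 and C/EBP composite read on the other strand, chr1:191183425-191183454, minus strand: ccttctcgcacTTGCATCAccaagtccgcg
Angptl8, ATF4 and C/EBP composite, chr9:21835369-21835398, plus strand: agccatcagtcTGATGCAAtggctgagcct
Btg2, cAMP response element, chr1:134079303-134079332, minus strand: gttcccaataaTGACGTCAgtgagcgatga
The AP-1 stretches of Cidec, Il1rn and Lrtm1 share the letters TGA and TCA around a variable base, and occur in genes of both directions. A match of letters in this window is a description and not a site of binding.

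How the 82 genes responded in the other 5 strains was a question the choice had not used, so it could be tested. The 65 mice of C57BL/6J, 129S1/SvImJ, DBA/2J, A/J and WSB/EiJ were fitted together with limma-voom, with Benjamini-Hochberg adjustment over 18034 genes, all 82 of the set among them, and a gene was called at an adjusted p below 0.05. In C57BL/6J, 19 of the 47 genes rose and 6 fell (15.7% of all genes tested rose and 12.2% fell), and 4 of the 35 rose and 9 fell. In 129S1/SvImJ the 47 genes gave 15 rises and 2 falls and the 35 gave 2 and 14, beside 15.1% and 14.9% of all genes. DBA/2J had 12 and 3 of the 47 and 3 and 11 of the 35 (10.9% and 8.53%). A/J had 3 and 0 of the 47 and 1 and 8 of the 35 (4.45% and 4.73%). The 0 was from limma-voom, where 2 of the 47 were lower at an unadjusted p below 0.05, and edgeR's quasi-likelihood test and DESeq2 also called 0. WSB/EiJ had 1 and 5 of the 47 and 1 and 4 of the 35 (5.03% and 4.39%). For the mean diet effect of the 5 strains, 23 of the 47 rose and 4 fell, and 7 of the 35 rose and 17 fell, beside 25.1% and 23.0% of all genes. The 11149 genes with a mean of at least 1, a closer background, gave other shares. There, 17.5% rose and 15.3% fell in C57BL/6J, 13.4% and 21.2% in 129S1/SvImJ, and 12.8% and 12% in DBA/2J. A/J had 5.55% and 6.61%, WSB/EiJ 6.05% and 6.05%, and the mean of the 5 strains 25.7% and 30.7%.

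Counted by direction, calls as in PWK/PhJ outnumbered calls as in CAST/EiJ in C57BL/6J (28 and 10 of 82), 129S1/SvImJ (29 and 4), DBA/2J (23 and 6) and A/J (11 and 1), and the numbers were 5 and 6 in WSB/EiJ. Over the 5 strains, 41 genes were called only in the PWK/PhJ direction, 12 only in the CAST/EiJ direction, 1 (Gm4956) in both and 28 in neither. The same count was read for the 24 genes that still met the rule without the 4 CAST/EiJ mice and for the 58 that did not. Among the 24, the mean of the 5 strains was called as in PWK/PhJ in 7 and as in CAST/EiJ in 6, and among the 58 in 33 and 5. In C57BL/6J the numbers were 3 and 7 of the 24 and 25 and 3 of the 58, in 129S1/SvImJ 5 and 2 and 24 and 2, in DBA/2J 3 and 2 and 20 and 4, and in WSB/EiJ 2 and 5 and 3 and 1. In A/J the only call among the 24 was as in PWK/PhJ, and the 58 had 10 and 1. These splits are descriptions and were not tested against each other. No such count was made for genes chosen by the PWK/PhJ difference alone. Whether the larger number of calls as in PWK/PhJ is particular to the 82 was therefore not tested.

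**Figure D4:**
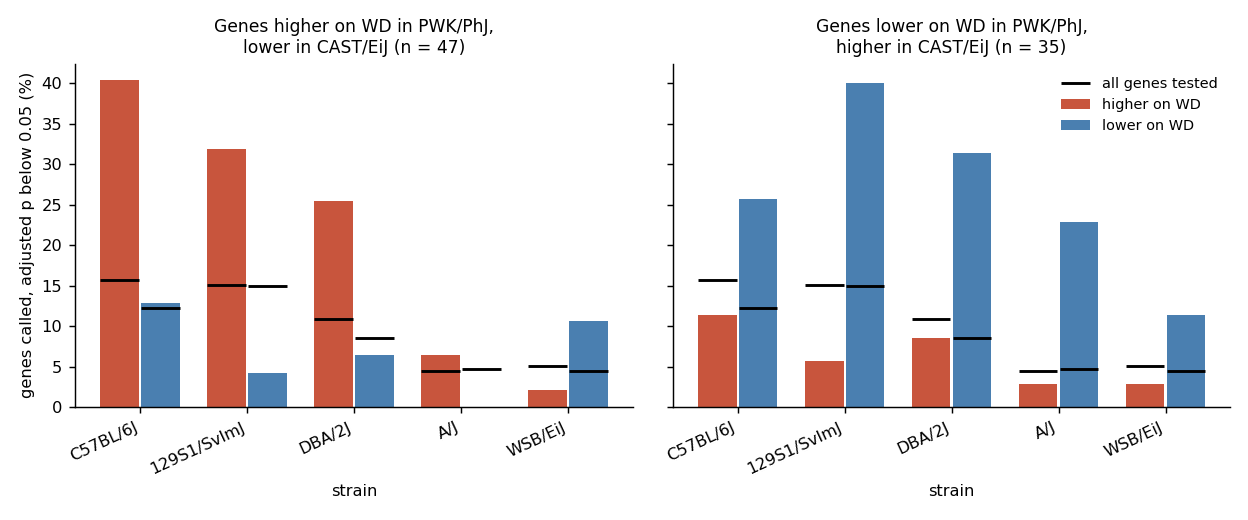
Share of the 47 genes (left) and of the 35 genes (right) called in each of the 5 other strains at an adjusted p below 0.05, in percent, in red for higher and blue for lower on WD; black lines give the same share of all 18034 genes tested. In 129S1/SvImJ 31.9% of the 47 were higher and 40.0% of the 35 were lower, against lines at 15.1% and 14.9%. Of genes with a mean of at least 1, 13.4% were higher and 21.2% lower in that strain.

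Genes that rose in the other strains, as in PWK/PhJ, included Cidec, Apoa4, Mt1, Vnn1 and Atf3. Cidec rose in C57BL/6J from a median of 13.4 CPM (6.00 to 68.8) to 142 (66.4 to 195), by 3.18 ± 0.29 on the log2 scale (SE, adjusted p = 8.35e-13, limma-voom). It also rose in 129S1/SvImJ (1.33 ± 0.47, adjusted p = 0.0269, limma-voom) and DBA/2J (1.44 ± 0.47, adjusted p = 0.0223, limma-voom), and had differences of 0.38 in A/J and 0.02 in WSB/EiJ, which did not pass. Apoa4 rose by 1.19 ± 0.14 over the 5 strains (adjusted p = 2.81e-10, limma-voom), Mt1 by 1.62 ± 0.22 (adjusted p = 6.71e-09) and Vnn1 by 1.05 ± 0.18 (adjusted p = 2.74e-06). Atf3 rose by 0.95 ± 0.26 (adjusted p = 0.00161, limma-voom) and passed in C57BL/6J and 129S1/SvImJ alone among single strains. Cdkn1a did not pass in any of the 5 strains, with differences from -0.06 to 0.97 and a mean of 0.52 ± 0.25 (adjusted p = 0.0786, limma-voom), and neither did Ehhadh, with a mean of 0.11 ± 0.13 (adjusted p = 0.512).

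Genes of the 35 that fell in the other strains, again as in PWK/PhJ, were led by Inhba, Reck, Shroom1, Ppp1r3c and Angptl8. Inhba fell in all 5 strains, from a median of 23.8 to 9.19 CPM in C57BL/6J, 28.7 to 12.4 in 129S1/SvImJ, 34.2 to 14.7 in DBA/2J, 49.6 to 14.5 in A/J and 14.0 to 5.67 in WSB/EiJ, with a mean change of -1.39 ± 0.13 (SE, adjusted p = 4.79e-13, limma-voom). Angptl8 also fell in all 5, with a mean of -1.65 ± 0.20 (adjusted p = 3.28e-10, limma-voom). Ppp1r3c had a mean of -1.36 ± 0.16 (adjusted p = 1.31e-10, limma-voom) and passed in 4 strains, with -0.99 ± 0.39 in WSB/EiJ (adjusted p = 0.102). Reck (-0.66 ± 0.07, adjusted p = 8.09e-12), Shroom1 (-0.56 ± 0.06, adjusted p = 7.98e-11) and Celsr1 (-0.81 ± 0.13, adjusted p = 1.23e-06, limma-voom) fell over the 5 strains, and none of these 3 passed in WSB/EiJ.

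A smaller group changed as in CAST/EiJ. Cyp39a1 fell from a median of 63.6 CPM to 17.3 in C57BL/6J, 17.3 to 5.57 in 129S1/SvImJ and 31.1 to 5.57 in WSB/EiJ. Over the 5 strains its change was -1.61 ± 0.20 (SE, adjusted p = 1.97e-09, limma-voom), and DBA/2J (-1.51 ± 0.64) and A/J (-0.62 ± 0.47) did not pass on their own. Grk3, a kinase that desensitises G protein-coupled receptors, fell by 0.73 on the log2 scale (SE 0.09, adjusted p = 1.51e-09, limma-voom), and passed in C57BL/6J, DBA/2J and WSB/EiJ when taken singly. Smad9, a transcription factor of BMP signalling named after its values were seen, fell in 4 strains and by 0.99 over the 5 (SE 0.14, adjusted p = 4.92e-08, limma-voom). Of the 35, Lrtm1 rose by 0.98 ± 0.30 (adjusted p = 0.00555, limma-voom) and Cyp26a1 by 0.96 ± 0.25 (adjusted p = 0.00102), although Cyp26a1 passed in no single strain.

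**Figure D5:**
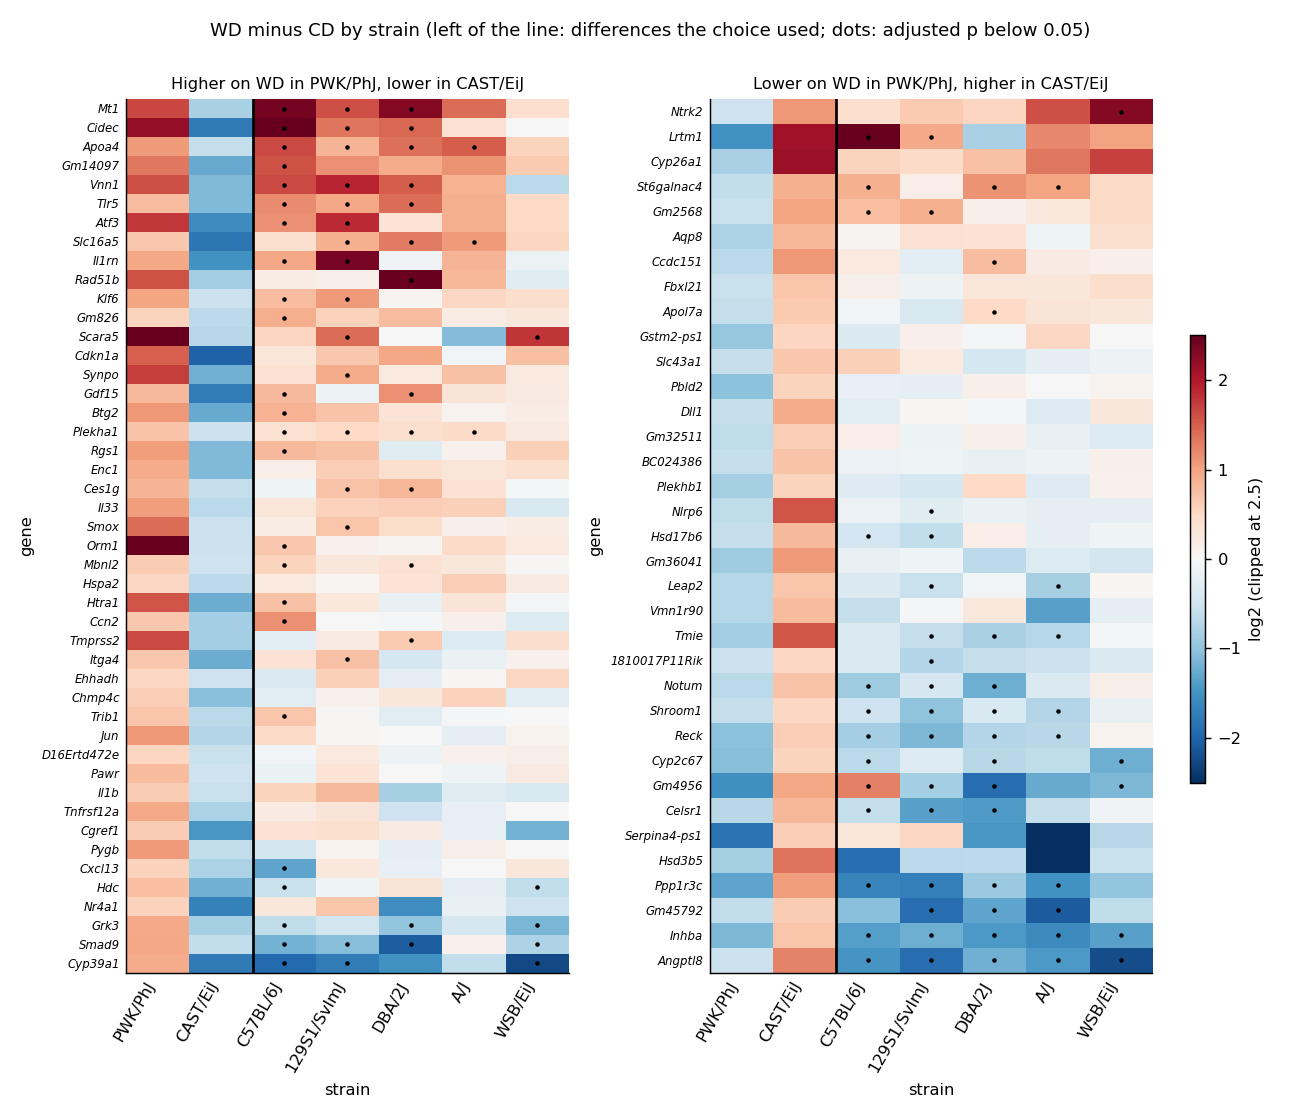
WD minus CD on the log2 scale for 46 of the 47 genes (left panel) and the 35 genes (right panel) in each strain, red for higher and blue for lower on WD, colours clipped at 2.5; the columns left of the line are the differences that chose the genes, and dots mark an adjusted p below 0.05 in the other 5 strains. Inhba and Angptl8 are blue with dots in all 5, and Cyp39a1 at the bottom of the left panel is blue in all 5 with dots in 3.

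Whether the diet effect differed among the 5 strains was tested with limma's F test, which passed for 8 of the 47 (17%) and 5 of the 35 (14.3%). Of all genes tested 11.3% passed, and of those with a mean of at least 1, 14.2%. The 35 were thus at this last share and the 47 little above it. The strongest was Gm4956, a pseudogene, which rose in C57BL/6J from a median of 1.74 to 4.76 CPM (1.26 ± 0.26) and had differences of -0.85 to -1.90 in the other 4 strains (F test adjusted p = 1.13e-06, limma-voom). Il1rn rose in 129S1/SvImJ from a median of 3.12 to 16.9 CPM (2.38 ± 0.33) and in C57BL/6J (0.97 ± 0.23), with differences of -0.09 in DBA/2J and -0.14 in WSB/EiJ (F test adjusted p = 5.9e-05, limma-voom). Notum (F test adjusted p = 0.000273) fell by 1.21 in DBA/2J and had a difference of 0.15 in WSB/EiJ, and Cidec also differed among strains (F test adjusted p = 0.00206). In C57BL/6J and 129S1/SvImJ minus DBA/2J, A/J and WSB/EiJ, the diet effect was higher in 6 and lower in 0 of the 47 at an adjusted p below 0.05 by limma-voom, and higher in 2 and lower in 2 of the 35, beside 3.55% and 2.32% of all genes. Of genes with a mean of at least 1, 3.79% were higher and 3.15% lower. At an unadjusted p below 0.05, 1 of the 47 was lower, and edgeR's quasi-likelihood test and DESeq2 also called 0. Il1rn (1.46, adjusted p = 0.000613), Itga4, an integrin of leukocyte adhesion (0.71, adjusted p = 0.00282), and Cidec (1.64, adjusted p = 0.0104, limma-voom) were among the 6.

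The members also varied among mice of a group. The median standard deviation over the 47 genes was 0.87 in CAST/EiJ on CD and 0.29 to 0.69 in the other 13 groups, the highest of them C57BL/6J on CD. Over the 35 it was 0.67 in CAST/EiJ on CD and 0.65 in C57BL/6J on CD, and over the 11149 genes 0.210 and 0.205. Because the rule used the CAST/EiJ means, which can favour genes that vary there, the 0.87 is not read as a result. After centring each group, pairs of the 47 had a median correlation of 0.126 over the 65 mice of the other strains, pairs of the 35 of 0.164, pairs across the sets of -0.138, and all pairs of the 11149 of 0.0071. These mice share groups, cages and libraries, so the values are given as a description. The highest pairs were Angptl8 with Ppp1r3c (0.798) and Pygb with Htra1 (0.798), followed by Vmn1r90 with Hsd3b5 (0.796), and Apoa4 with Cidec reached 0.767. Pygb is named after its values were seen, and an exon of Vmn1r90 overlaps a pseudogene on the same strand, so its reads are uncertain.

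Within cohorts, all 47 genes kept the PWK/PhJ direction in both PWK/PhJ cohorts, and 34 and 35 of the 35 did. In CAST/EiJ, 31 of the 47 and 25 of the 35 kept it in cohort 1 (1 CD and 3 WD mice), 42 and 34 in cohort 3 (2 and 2), and 46 and 35 in cohort 4 (4 and 3). All 5 cohorts had the direction of the rule in 28 of the 47 and 23 of the 35. The cohorts make up the means that the rule used, so nothing is read from these counts. Gdf15 shows the spread, with CAST/EiJ differences of 2.76 in cohort 1, -2.12 in cohort 3 and -2.90 in cohort 4, whereas Cyp39a1 had -1.64, -1.35 and -1.78.

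Other gene lists placed the 82 in their pathways. Of 34 fatty acid oxidation genes, 2 were among the 82 (Ehhadh and Vnn1), while 5 were at least 0.5 higher and 2 at least 0.5 lower on WD in PWK/PhJ and 0 and 11 in CAST/EiJ. With upper-quartile scaling the PWK/PhJ numbers were 2 and 4, and without the 4 mice the CAST/EiJ numbers were 4 and 4. Of 22 lipid droplet genes 1 was (Cidec), with 7 and 1 in PWK/PhJ (6 and 4 with upper-quartile scaling) and 3 and 8 in CAST/EiJ, or 5 and 0 without the 4 mice. Of 33 acute phase genes 3 were (Orm1, Mt1 and Il1rn), with 14 and 6 against 4 and 9, or 3 and 10 without the 4 mice. None of 25 cholesterol synthesis and uptake genes was, since 24 were at least 0.5 lower in PWK/PhJ and 22 in CAST/EiJ. In the other 5 strains, 8 of 26 immediate early genes rose and 9 fell for the mean effect, 15 and 3 of 27 lipid droplet genes, 17 and 7 of 34 acute phase genes, 9 and 1 of 34 fatty acid oxidation genes, and 4 and 18 of 25 genes of gluconeogenesis and insulin response. Of all genes tested, 25.1% rose and 23.0% fell for this effect. The rises of the immediate early and fatty acid oxidation genes were near that share, and no list was tested against it.

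Summed cell markers moved with diet in both strains, and in bulk liver fewer cells of a type and less RNA per cell cannot be told apart. The summed level of 15 hepatocyte markers was 142651 to 168936 CPM on CD and 87531 to 123189 on WD in PWK/PhJ, and 132372 to 157295 and 93338 to 117091 in CAST/EiJ, so the sum was lower on WD in both. Marker by marker, 8 of the 15 were at least 0.5 lower on WD in PWK/PhJ, with a median difference of -0.51 (log2 CPM). Only 2 of the 15 were for CAST/EiJ, where the median was -0.17. Abundant markers weigh most in such a sum, and whether hepatocyte content fell was not tested. The sum of 12 markers of lipid-associated macrophages was 199 to 317 and 335 to 840 CPM in PWK/PhJ against 58.4 to 117 and 84.9 to 140 in CAST/EiJ. In PWK/PhJ the sum of 15 stellate cell and fibroblast markers went from 349 to 557 on CD to 638 to 1008 on WD, while in CAST/EiJ it was 543 to 655 and 535 to 806. The sum of 11 cholangiocyte markers was 123 to 205 on CD and 224 to 584 on WD in PWK/PhJ and 80.6 to 99.1 and 99.2 to 138 in CAST/EiJ, so the diets did not overlap in either strain. None of the macrophage, stellate or cholangiocyte markers was among the 82. Of these markers, 9, 15 and 4 had a mean of at least 1. With 0.735% of all such genes in the 82, nothing is read from their absence. The part of these cells in the differences was not tested. The 7 adipocyte markers other than Cidec summed to 23.1 to 38 CPM in CAST/EiJ on CD and 22.4 to 30.1 on WD. In CAST/EiJ on CD, Adipoq, Lep, Retn, Plin1 and Cfd were at most 0.486, 0.0777, 0.127, 0.614 and 1.38 CPM. Fabp4 was 4.69 to 9.78 and Lipe 16.1 to 27.9 CPM there, the highest Lipe level of all 93 mice, and the part of fat cells in the Cidec level was not tested.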

How the data were processed

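Liver RNA of 93 male mice (7 strains, CD or WD) was sequenced by the authors from SMARTER libraries on the BGISEQ-500, and reads of all strains were mapped to the C57BL/6J genome. The submitters' processing notes name STAR 2.7.1a with GRCm38, also called mm10; the annotation release and the strand setting of the counting are not given in the sources used here. What the authors deposited was a table of counts, unnormalized reads per gene for each mouse, and all 93 columns were used. Symbols and coordinates came from GENCODE on GRCm38 and promoters from RefSeq.

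The 82 genes and all gene lists were chosen with earlier results of these data known. Differences of TMM-scaled log2 CPM (prior count 2) chose the genes, so PWK/PhJ and CAST/EiJ values are descriptions with no test. The 65 mice of the other 5 strains were tested with R 4.3.3, edgeR 4.0.16 (TMM, filterByExpr at a minimum count of 10) and limma 3.58.1 (voom, 10 groups in 1 fit), as moderated tests with Benjamini-Hochberg adjustment over 18034 genes at 0.05. Adjusted p-values with fewer than 10 mice per group all come from these models. The pipeline was tested on simulated data with known changes. Depth was 40020424 to 49894856 reads on genes (median 46618609), RIN was 7 to 9.7, and counting error adds most to genes near the lowest levels. The 268 pairs of mice within a group all differed by more than sampling noise. Alternatives were edgeR's quasi-likelihood test, DESeq2 1.42.0, other scalings, filters, covariates, weights and mice entered. Figures were drawn with matplotlib 3.10.9.

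Named genes followed a rule. Per direction they were the 12 with the largest value of the smaller absolute difference that carried no predicted-gene name, the 3 with the smallest adjusted p for the mean of the 5 strains, and the 3 with the smallest for the F test. Up to 3 members of each list and the 2 genes on each side of the threshold were added, and other names are marked as chosen after their values were seen. A candidate of this rule that the text leaves out is not reported here.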

Additional observations from a re-analysis of the deposited data

Results flagged for a closer look

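In 160 groups, 40 genes in each of the 4 PWK/PhJ and CAST/EiJ groups, the gap of the highest or lowest mouse to its neighbour was compared with the range of the group, and 17 groups exceeded the critical value. Chance flags about 5% of groups, but these genes were chosen by the means of the same mice, which a single extreme mouse can move, so the number is not read against that share. The ratios of gap to range follow. In CAST/EiJ on CD, mouse 5 was highest for Htra1 (0.868), Il1rn (0.596) and Hspa2 (0.617), and mouse 2 for Angptl8 (0.726). In CAST/EiJ on WD the highest mouse stood apart for Cdkn1a (mouse 4, 0.701), Cyp39a1 (mouse 6, 0.673), Ccn2 (mouse 6, 0.658), Ppp1r3c (mouse 2, 0.7), Cyp2c67 (mouse 2, 0.542), Celsr1 (mouse 7, 0.538) and Ehhadh (mouse 1, 0.659). In PWK/PhJ on CD, mouse 3 was highest for Lrtm1 (0.793) and mouse 6 for Btg2 (0.629). In PWK/PhJ on WD, mouse 6 was lowest for Atf3 (0.57) and highest for Lrtm1 (0.647) and Ces1g, one of a family of similar genes (0.679), and mouse 3 was highest for Cyp26a1 (0.897).

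The diet effect differed among the 5 other strains by limma's F test with an adjusted p below 0.05 for 9 named genes. The adjusted p-values from limma-voom were 1.13e-06 for Gm4956, 5.9e-05 for Il1rn, 0.000273 for Notum, 0.00206 for Cidec, 0.00315 for Reck, 0.00482 for Itga4, 0.00863 for Vnn1, 0.0246 for Ces1g and 0.0298 for Shroom1. Among them, Vnn1 ranged from 1.90 in 129S1/SvImJ to -0.68 in WSB/EiJ, and Reck from -1.13 in 129S1/SvImJ to 0.09 in WSB/EiJ on the log2 scale.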

How the results depend on the processing

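No paired analysis was possible because the labels carry no replicate numbers, and the numbers used here only name mice in accession order. Leaving out CAST/EiJ CD mice 3, 5, 6 and 7 together was chosen after seeing the data and left 30 and 20 genes by the rule, in place of 47 and 35, with 24 of the 82 among them. It turned the CAST/EiJ difference of Cidec to 0.19, Atf3 to 0.39, Cdkn1a to 0.39, Synpo to 0.39, Btg2 to 0.0054, Rgs1 to 0.086, Apoa4 to 0.70, Gdf15 to 1.04, Ehhadh to 0.94, Mt1 to 1.03, Ccn2 to 0.023, Ppp1r3c to -0.30 and Inhba to -0.061. A mean of at least 3 left 25 and 20 genes, by construction. Leaving out single PWK/PhJ or CAST/EiJ mice gave 39 to 63 genes higher and 29 to 41 lower in PWK/PhJ, and 43 of the 82 met the rule every time. Upper-quartile scaling gave 46 and 48 genes, with the median of all genes at -0.24 in PWK/PhJ, and library totals gave 50 and 24, so the share of genes higher in PWK/PhJ went from 57.3% to 67.6% with the median of all genes at 0.13. Of the 82 genes, 62 met the rule with upper-quartile scaling and 55 with library totals. With group medians 66 did, with adjustment for cohort 69 and with adjustment for RIN 70. No gene of the 82 changed direction in either strain under other scalings, filters, group medians, or adjustment for cohort or RIN. The filters left the differences as they were, and each of the 82 was chosen at a difference of at least 0.5 in size. Little is therefore read from this.

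Calls in the 5 strains, as in PWK/PhJ or as in CAST/EiJ, moved by over 1.5 times as follows, and the cause was not tested. With edgeR's quasi-likelihood test, 2 genes were called as in CAST/EiJ in A/J (1 as reported) and 1 in the contrast of C57BL/6J and 129S1/SvImJ with the other 3 strains (2 as reported). DESeq2 called in A/J 20 and 2 (11 and 1 as reported), for DBA/2J 10 as in CAST/EiJ (6 as reported) and 21 by its likelihood ratio test among strains (13 as reported). Sample weights gave 28 and 6 in A/J, 18 as in PWK/PhJ in the contrast (8 as reported) and 30 in the F test. Separate fits gave 6 as in CAST/EiJ in C57BL/6J (10 as reported), 44 and 7 in 129S1/SvImJ (29 and 4 as reported), 31 and 3 in A/J, 12 as in CAST/EiJ for DBA/2J and 3 as in PWK/PhJ in WSB/EiJ (5 as reported). Both filters on low counts gave 1 as in CAST/EiJ in the contrast, and cohort gave 2 in A/J. Leaving out single A/J CD mice gave 1 to 2 as in CAST/EiJ both in A/J, with 2 without mouse 3, and in the contrast, with 1 without mouse 2. Of 1863 fold changes of named genes under these settings, 1768 kept their side of the threshold, 90 lost it, 5 gained it and 0 reversed. Apart from the mean of the 5 strains, only fold changes already called in the reported fit were entered. Those could lose a call but not gain one, so the numbers say little about genes that were not called.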

Other observations

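Some genes that the naming rule did not select, named here after their values were seen, were also separated by diet in PWK/PhJ. Smox, which oxidises spermine, was 2.45 to 4.64 CPM (median 3.16) on CD and 6.65 to 11.5 (median 9.35) on WD in PWK/PhJ, and 3.47 to 11.8 (median 6.05) and 3.21 to 4.41 (median 4.08) in CAST/EiJ, where the difference of -0.53 became 0.034 without CD mice 3, 5, 6 and 7. Scara5, a ferritin receptor, was 0.187 to 0.316 (median 0.238) and 1.06 to 3.91 (median 1.37) in PWK/PhJ and 4.57 to 31.7 (median 18.2) and 3.35 to 32.3 (median 8.33) in CAST/EiJ, with differences of -0.69 and -0.53. Tlr5, the receptor for flagellin, was 4.72 to 7.71 (median 6.4) and 7.83 to 14.3 (median 10.6) in PWK/PhJ and 1.06 to 14.5 (median 9.66) and 1.53 to 5.76 (median 2.51) in CAST/EiJ, where -1.10 became 0.31. It rose over the other 5 strains by 0.99 ± 0.14 (SE, adjusted p = 4.96e-08, limma-voom). Slc16a5, a monocarboxylate transporter, had a CAST/EiJ difference of -1.81 that became 0.22 without those mice. Slc16a5 rose over the other 5 strains by 0.84 ± 0.12 (adjusted p = 1.04e-07, limma-voom).

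Ntrk2, a receptor for brain-derived neurotrophic factor, was 4.76 to 68.9 CPM (median 55.2) in CAST/EiJ on WD, so a wide spread among the WD mice lay behind its difference of 1.08, which became 1.69 without the 4 CD mice. It rose in WSB/EiJ by 2.29 ± 0.64 (SE, adjusted p = 0.0136, limma-voom). The summed level of 13 pancreas markers reached 1733 CPM in 1 CAST/EiJ WD mouse, against a median of 16.8 over all 93 mice. None of these markers was among the 82, but only 1 of the 13 had a mean of at least 1.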
